A study of Mus musculus with 4 samples.

Results

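Axon guidance ligands and their receptors were examined in freshly isolated mouse peritoneal mesothelial cells. The genes were taken by symbol from the table of all genes: the semaphorins of classes 3 to 7, the plexins and neuropilins, the ephrins and Eph receptors, the Slits and Robos, the netrins with Dcc, neogenin (Neo1) and the Unc5 receptors, and the 2 netrin-G proteins. The rule found 71 of the 48425 genes, 36 of them ligands and 35 receptors. The study holds 1 group of 4 C57BL/6 mice aged 10 weeks, untreated and without a named transgene, with 1 library per animal and no second condition. Cells were detached from the emptied peritoneal cavity with 0.25% trypsin and EDTA at 37 °C for 20 min. They were then sorted as CD45-, Pdpn+ and Gpm6a+ (negative for the pan-leukocyte marker, positive for podoplanin and for the membrane glycoprotein M6a). Total RNA was depleted of rRNA before sequencing. The labels name neither the sex of the animals nor a batch. With 1 group, the data hold levels and their spread between animals, and no contrast between conditions.

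Guidance molecules were first studied as the cues that steer growing axons, and the same families act on adhesion, cell sorting and vessel growth in many other tissues. Secreted class 3 semaphorins signal through neuropilins paired with plexins, whereas most membrane-bound semaphorins bind plexins directly. Ephrins and Eph receptors are both held at the cell surface and signal in both directions where cells touch. Secreted Slits bind Robo receptors, and netrins bind Dcc, neogenin and Unc5 receptors. The mesothelium is the epithelial-like single layer that covers the peritoneal wall and organs, and it secretes lubricant and matrix.

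The libraries held between 4090224 and 4569578 estimated counts. Levels are given as CPM, the count of a gene divided by the library total and scaled to a total of 1000000. A floor of 3 counts corresponded to between 0.657 and 0.734 CPM in 1 library and to 0.171 CPM over all 4, which covers counting error only. All 12 mesothelial markers were above 1 CPM, among them Upk3b at 4135 ± 236 CPM and Msln at 2257 ± 394 CPM (SD, n = 4, as for all errors below). No neuronal marker of 8 passed 1 CPM, and Elavl4, Snap25 and Syt1 were at 0. Of 8 Schwann and glial markers 3 passed (Mbp, Erbb3 and Gfap), and Sox10 and Cdh19 were at 0. Of 8 endothelial markers 2 passed (Kdr and Tek), with Cdh5, Emcn and Cldn5 at 0. No B cell or T and NK cell marker passed, and 3 of 8 macrophage markers did. The 6 B cell markers summed to 26.3 CPM in animal 1 and to between 0.453 and 1.84 CPM in the other animals. Of 8 fibroblast markers 7 passed. The list summed to between 11990 and 17170 CPM per animal, nearly all of it Dcn (decorin, a matrix proteoglycan) at 12890 CPM, and to between 790 and 1670 CPM without Dcn. The median of the marker means was 51.3 CPM for the fibroblast list and 666 CPM for the mesothelial list. Of 8 pericyte and smooth muscle markers 4 passed. The part of such cells in the guidance levels was not tested, and in these bulk samples fewer cells of a type and less RNA per cell cannot be told apart.

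Of the 71 guidance genes, 42 (59.2%) were above 1 CPM in the 4 animals by edgeR's quasi-likelihood test, one-sided and Benjamini-Hochberg adjusted over all genes. The same test called 24.7% of all genes of the table, which includes many noncoding genes and pseudogenes. Among the protein-coding genes alone it called 10941 of 21492 (50.9%), so the share of guidance genes lay near that background. The median of the gene means was 4.26 CPM for the guidance genes and 2.88 CPM for protein-coding genes. A mean of at least 10 CPM was reached by 29 guidance genes and a mean of at least 100 CPM by 5. At the other end, 17 had no count in any animal (23.9%, beside 29.3% of protein-coding genes). Summed, the guidance genes took 0.245% of all counts, between 2337 and 2603 CPM per animal. The plot of levels by gene shows how wide the range was within most families.

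**Figure D1:**
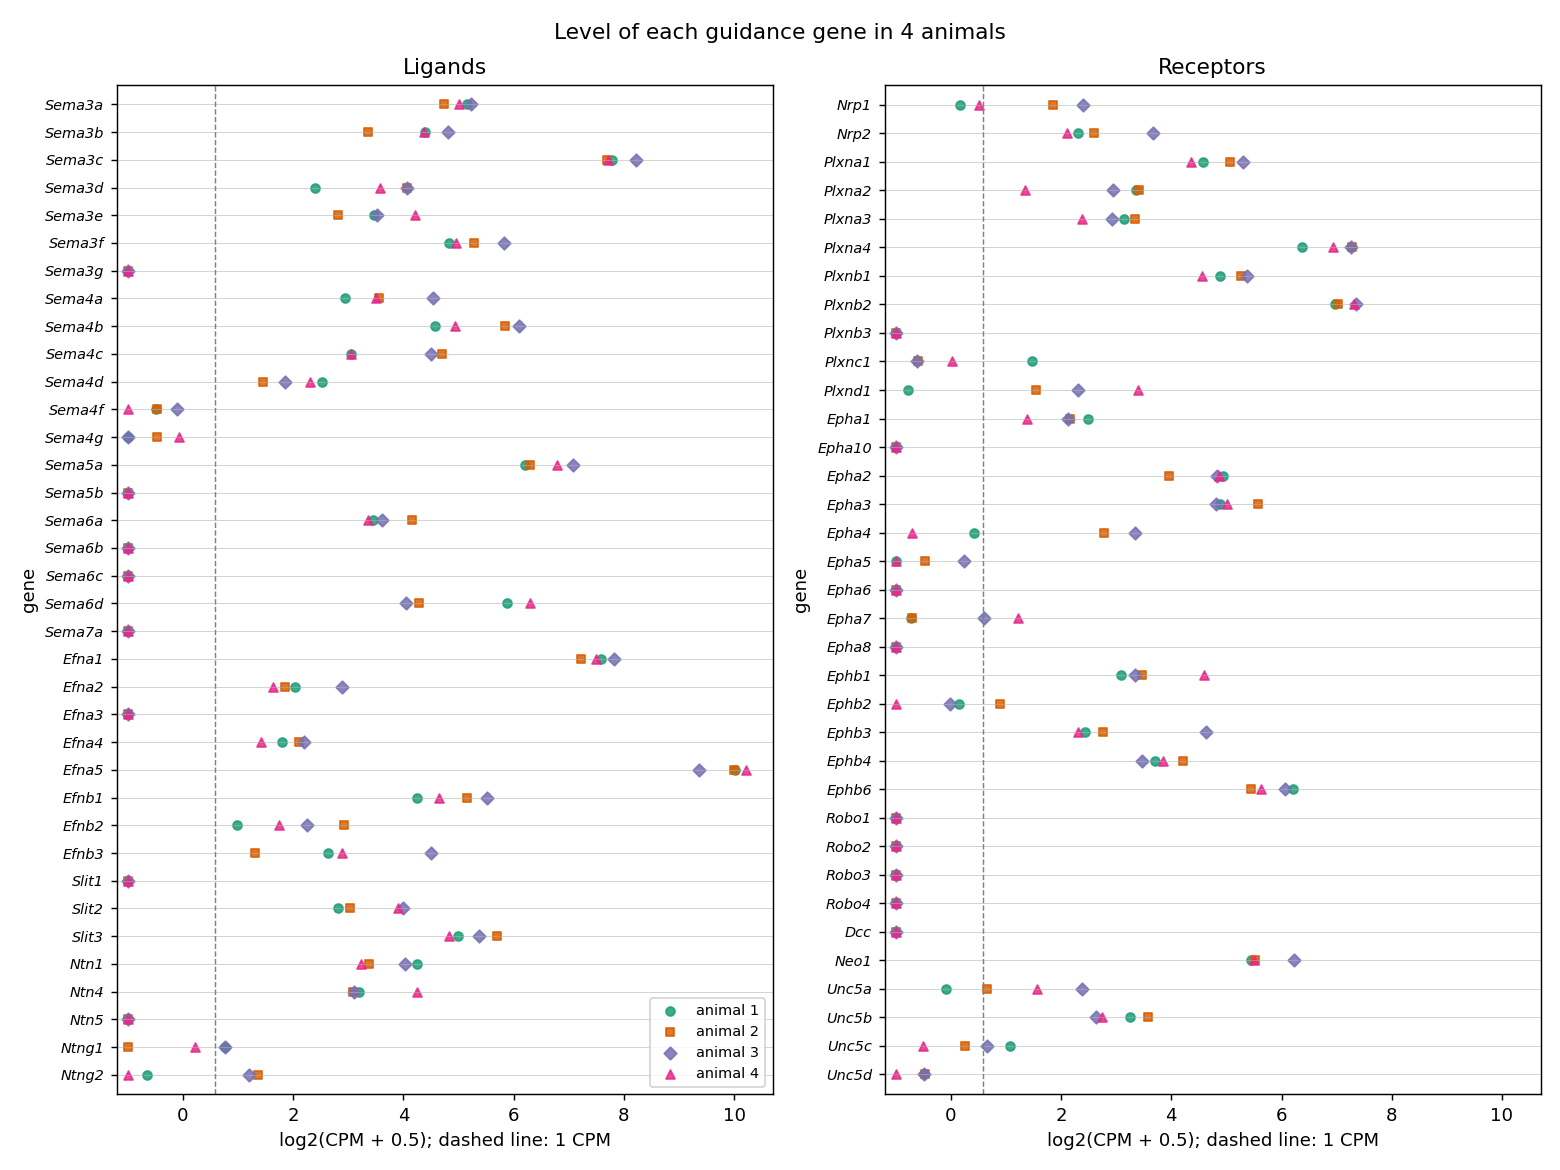
Level of each of the 71 guidance genes as log2(CPM + 0.5) in each of 4 animals (1 point per animal), ligands on the left and receptors on the right, with a dashed line at 1 CPM. Efna5 lies farthest to the right in every animal, and the 17 genes without a count sit together at the left edge.

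Efna5, a GPI-anchored ephrin-A ligand (ENSMUSG00000048915, chr17:62604184-62881317 in GRCm38, minus strand), had the highest level of the 71. It measured 1036, 1026, 657 and 1186 CPM in animals 1 to 4 (976 ± 225 CPM, adjusted p = 9.23e-36 against 1 CPM with edgeR's quasi-likelihood test). Animal 3 was the low one, and the other animals lay close together. By mean CPM, Efna5 ranked 130 of all 48425 genes of the table. This 1 gene made up 44.3, 42.4, 26.6 and 45.6% of the summed guidance CPM in the 4 animals, a mean of 39.7 ± 8.86%. Together with Sema3c and Efna1 it made up 56.9 ± 6.41%.

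The sequences before 4 gene starts are shown because the members differed so widely in level. They are the 250 bases upstream of the 5′-most RefSeq start (GRCm38.p6), with CpG dinucleotides in capitals. They were chosen after the levels were known, among the 23 of 61 matched members whose window ends at the annotated gene start and holds no annotated exon. Efna5 and Plxnb2 have the highest means of those 23, Sema4a has the fewest CpG among those with at least 10 CPM, and Epha8 has the most CpG among those without a count.
Efna5, minus strand, chr17:62881318-62881567: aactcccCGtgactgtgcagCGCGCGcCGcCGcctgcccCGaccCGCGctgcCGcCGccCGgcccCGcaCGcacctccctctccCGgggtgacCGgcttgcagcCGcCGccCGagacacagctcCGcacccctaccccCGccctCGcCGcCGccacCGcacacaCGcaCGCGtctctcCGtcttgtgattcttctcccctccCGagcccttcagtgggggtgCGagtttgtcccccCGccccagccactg
Plxnb2, minus strand, chr15:89180789-89181038: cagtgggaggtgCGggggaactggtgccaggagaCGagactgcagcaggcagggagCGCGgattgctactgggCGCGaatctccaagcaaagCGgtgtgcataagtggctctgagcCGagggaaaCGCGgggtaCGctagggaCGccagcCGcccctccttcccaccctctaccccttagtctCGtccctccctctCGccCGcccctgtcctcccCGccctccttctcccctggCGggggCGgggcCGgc
Sema4a, minus strand, chr3:88461183-88461432: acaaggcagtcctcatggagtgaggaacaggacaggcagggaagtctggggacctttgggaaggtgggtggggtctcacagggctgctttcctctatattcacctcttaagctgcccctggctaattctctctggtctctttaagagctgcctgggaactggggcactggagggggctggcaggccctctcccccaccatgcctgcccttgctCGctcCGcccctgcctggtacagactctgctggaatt
Epha8, minus strand, chr4:136956817-136957066: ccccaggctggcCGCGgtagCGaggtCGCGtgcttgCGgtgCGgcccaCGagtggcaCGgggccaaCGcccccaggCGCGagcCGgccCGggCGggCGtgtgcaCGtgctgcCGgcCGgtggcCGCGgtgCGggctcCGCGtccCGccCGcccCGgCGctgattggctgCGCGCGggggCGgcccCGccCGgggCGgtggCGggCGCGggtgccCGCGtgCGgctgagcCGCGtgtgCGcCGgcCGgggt
The Efna5 window holds 32 CpG and 74.8% G and C, and the Plxnb2 window 20 CpG and 69.2%. The Sema4a window holds 2 CpG at 59.6% G and C. The Epha8 window, of a gene without a count, holds 46 CpG and 84.0% G and C, the highest CpG number of all matched guidance genes.

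The median CpG number of matched guidance genes was at least 15 at every level, but single windows ranged from 1 to 46 CpG. All 61 matched windows were used here, and only 23 of them end at the annotated gene start and hold no annotated exon. The median was 16 CpG for the 23 matched members with a mean of at least 10 CPM and 20 CpG for the 23 matched members below that with at least 1 count. For the 15 matched members without a count it was 15 CpG. Among matched protein-coding genes, the median was 16 CpG for those with a mean of at least 10 CPM and 2 CpG for those without a count. At least 15 CpG were found in 53.3% of the matched guidance genes without a count, beside 9.31% of the matched protein-coding genes without a count. With a mean of at least 10 CPM the shares were alike, at 60.9% of matched guidance genes and 57.8% of matched protein-coding genes. The motif TATAAA, searched on both strands, occurred in the windows of Slit2 and Efnb2 only, and in 13.0% of all 27025 windows of the same length. Among matched protein-coding genes its share was 6.1% for those with a mean of at least 10 CPM and 22.8% for those without a count. These are descriptions of letters in a window, with no test, and the number of 15 CpG and the motif were chosen after the data were seen.

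**Figure D2:**
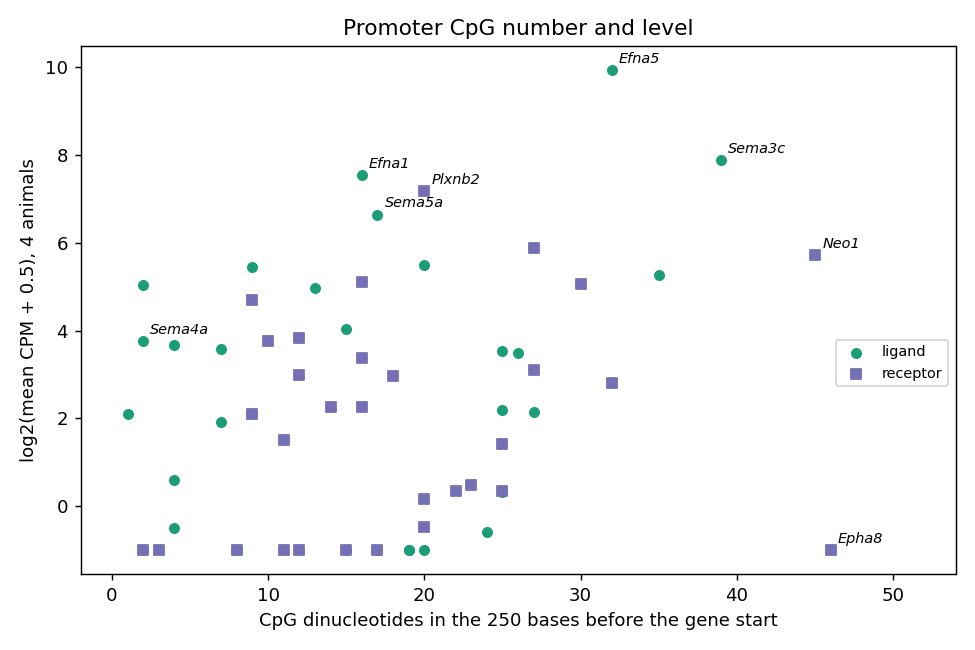
Number of CpG dinucleotides in the 250 bases before the RefSeq start (horizontal axis) against log2(mean CPM + 0.5) over 4 animals (vertical axis) for the 61 matched guidance genes, ligands as circles and receptors as squares. Efna5 with 32 CpG and Epha8 with 46 CpG lie at opposite ends of the vertical axis.

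Efna1, the second ephrin-A ligand in level, measured 191, 150, 225 and 180 CPM in animals 1 to 4 (186 ± 31.1 CPM). Animal 3, lowest for Efna5, was the highest for Efna1. Efna1 lies on chromosome 3 (chr3:89271733-89281142) beside Efna3 (chr3:89313899-89322965) and Efna4 (chr3:89333390-89338028), all on the minus strand. The 3 neighbours had unlike levels: Efna4 averaged 3.26 ± 0.876 CPM and passed the test, and Efna3 had no count in any animal. Efna2 averaged 4.04 ± 1.91 CPM. Levels of different genes are compared below per kb of the longest annotated transcript (GENCODE M21). On that scale Efna5 reached 242 ± 55.8 CPM per kb, Efna1 114 ± 19.1, Efna4 2.04 ± 0.548 and Efna2 1.90 ± 0.896. Efna5 exceeded Efna1 and Efna1 exceeded Efna4 in 4 of 4 animals with no overlap of ranges. The ranges of Efna4 and Efna2 overlapped.

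The EphA receptors, which bind ephrin-A ligands, were lower. Their sum was 14.5 ± 0.434 CPM per kb, beside 360 ± 42.8 CPM per kb for the ephrin-A ligands, and the ranges did not overlap. Of 9 EphA genes, 4 were above 1 CPM and 2 had a mean of at least 10 CPM. Epha2, a receptor widely made in epithelia, measured 30.3, 15.1, 27.8 and 28.8 CPM in animals 1 to 4. Epha3 measured 29.1, 46.8, 27.5 and 31.7 CPM. Animal 2 thus had the lowest Epha2 and the highest Epha3 of the 4. Per kb, Epha2 (6.53 ± 1.79) and Epha3 (5.96 ± 1.57) overlapped, although with the median transcript length Epha2 was the higher one in 4 of 4 animals (34.1 beside 14.1). Both lay above the next receptor, Epha1, at 1.15 ± 0.383 CPM per kb. Epha4 was called above 1 CPM with uneven support, at 0.835, 6.39, 9.69 and 0.112 CPM. Its call was carried by animals 2 and 3 and was lost without animal 3 (edgeR adjusted p = 0.192). Epha7 (mean 0.765 CPM) and Epha5 (0.227 CPM) were not called, and Epha6, Epha8 and Epha10 had no count.

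The B class of ephrins and Eph receptors showed the opposite balance in its means. The 3 transmembrane ephrin-B ligands summed to 13.2 ± 6.09 CPM per kb and the 5 EphB receptors to 23.5 ± 3.53. Per animal the ligand sums were 7.76, 12.9, 21.8 and 10.3 CPM per kb and the receptor sums 25.3, 19.2, 27.3 and 22.2. Receptors were higher within each animal, although the ranges overlapped. This rested on Ephb6, which alone gave 19.6, 11.4, 17.6 and 13.0 CPM per kb of the receptor sums. On this scale the receptor sums without Ephb6 lay below the ligand sums in each animal. Efnb1 led the ligands at 18.5, 35.2, 45.5 and 24.6 CPM (30.9 ± 11.9 CPM), highest in animals 2 and 3. Efnb3 averaged 9.13 CPM, of which animal 3 had 22.0 CPM and the other animals between 1.98 and 6.85. Efnb2, known for marking arterial endothelium, averaged 3.89 CPM.

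Ephb6 was the highest Eph receptor of either class. It lacks kinase activity, unlike most of its family. It measured 73.7, 42.8, 66.4 and 48.9 CPM (57.9 ± 14.5 CPM) and 15.4 ± 3.85 CPM per kb, above Ephb4 in 4 of 4 animals with no overlap. Ephb4, the receptor known to pair with Efnb2 in vessels, measured 12.6, 18.0, 10.6 and 14.0 CPM. Ephb1 measured 8.00, 10.6, 9.59 and 23.8 CPM, with animal 4 high. Ephb3 averaged 9.95 CPM, with 24.2 CPM in animal 3 and between 4.42 and 6.24 in the other animals. Ephb2 averaged 0.615 CPM and was not called.

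**Figure D3:**
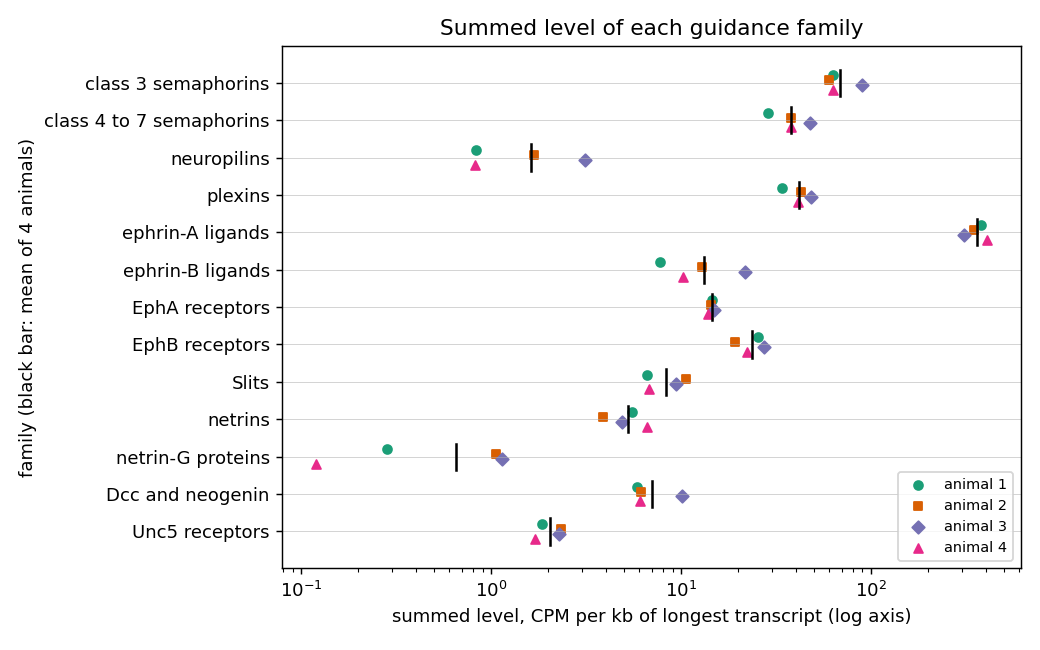
Summed level of each guidance family, in CPM per kb of longest transcript on a log axis, for each of 4 animals, with a black bar at the mean of the 4. Ephrin-A ligands lie highest, at 360 CPM per kb on average, and the Robo family is not drawn because its 4 genes had no count.

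Class 3 semaphorins, the secreted ones, summed to 68.6 ± 13.8 CPM per kb, and 6 of 7 were above 1 CPM. Their place among the families depended on the length used. They were second to the ephrin-A ligands per kb of longest transcript, but with the median transcript length the plexins (298 ± 39.2 CPM per kb) had a higher mean sum than they did (238 ± 50.04), and undivided the sums were nearly equal (354 and 348 CPM). Sema3c, which is known to act in heart outflow tract development, led them at 221, 208, 297 and 209 CPM (234 ± 42.8 CPM). Animal 3 was the high one, and the other animals lay within a narrow range. Sema3f, which prefers neuropilin-2, measured 27.8, 38.3, 56.2 and 30.6 CPM. Sema3a, the prototype axon repellent, measured 35.1, 26.1, 36.9 and 31.5 CPM. Both were detected at like CPM, but per kb Sema3f (11.3 ± 3.76) lay above Sema3a (5.46 ± 0.804), whose transcript is longer.

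Sema3b measured 20.5, 9.80, 27.7 and 20.3 CPM, lowest in animal 2. Sema3d measured 4.75, 16.3, 16.1 and 11.4 CPM, lowest in animal 1. Sema3e, which can signal through Plxnd1 without a neuropilin, measured 10.6, 6.48, 11.0 and 18.1 CPM, highest in animal 4. These 3 genes thus differed in which animal was highest, whereas animal 2 was lowest for both Sema3b and Sema3e. Sema3g had no count. Per kb the order was Sema3c, Sema3f, Sema3b, Sema3a, Sema3d and Sema3e. Neighbours in that order overlapped for Sema3b with Sema3a and for Sema3d with Sema3e. The other steps separated in 4 of 4 animals, with the median transcript length and without division by length as well.

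The neuropilins, the ligand-binding partners of class 3 semaphorins, were near the lower end. Nrp2 measured 4.43, 5.52, 12.3 and 3.82 CPM and passed 1 CPM. Nrp1 measured 0.619, 3.12, 4.74 and 0.930 CPM and did not pass (edgeR adjusted p = 0.0587). Both were highest in animal 3. The 2 neuropilins summed to 1.61 ± 1.09 CPM per kb, beside 68.6 for the class 3 ligands, and the ranges of the 2 sums did not overlap. The Nrp1 call is near the threshold and passed under 5 of the other settings tried.

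Membrane-bound and other semaphorins of classes 4 to 7 summed to 37.9 ± 7.62 CPM per kb, with 7 of 13 above 1 CPM. Sema5a, which carries thrombospondin repeats, measured 73.4, 78.3, 135 and 111 CPM (99.3 ± 29.0 CPM), higher in animals 3 and 4. Sema4b measured 23.2, 56.6, 67.6 and 30.2 CPM, and Sema4c 7.82, 25.4, 22.3 and 7.81 CPM. For both, animals 2 and 3 were high and did not overlap with animals 1 and 4. Sema6d measured 58.6, 19.0, 16.0 and 78.1 CPM, with the reverse split: animals 1 and 4 were high. It varied more between animals than any other guidance gene with a mean of at least 10 CPM.

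Sema4a measured 7.20, 11.2, 22.8 and 10.8 CPM, highest in animal 3. Sema6a measured 10.4, 17.4, 11.7 and 9.70 CPM, highest in animal 2. Sema4d, a ligand of Plxnb1 known from lymphocytes, averaged 3.76 ± 1.35 CPM and was called. The first 4 places in this class per kb, Sema4b (11.2), Sema5a (9.19), Sema6d (6.66) and Sema4c (4.07), all overlapped with their neighbours. Sema5a was above Sema4b in 4 of 4 animals, without overlap, with the median transcript length (31.5 beside 13.6) and without division by length. Sema4f (mean 0.213 CPM) and Sema4g (0.168 CPM) were not called. Sema5b, Sema6b, Sema6c and Sema7a had no count.

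Plexins, the signalling receptors for semaphorins, summed to 41.6 ± 5.87 CPM per kb, and 7 of 9 were above 1 CPM. Plxnb2, which binds class 4 semaphorins, measured 126, 130, 163 and 158 CPM (144 ± 19.0 CPM). It was the steadiest guidance gene between animals among those with a mean of at least 10 CPM. Plxna4, best known from sensory neurons as a receptor for Sema3a with neuropilin-1, measured 82.5, 156, 153 and 122 CPM (128 ± 34.2 CPM). Animal 1 was the low one. Per kb, Plxnb2 (22.2 ± 2.93) lay above Plxna4 (9.97 ± 2.66) in 4 of 4 animals without overlap, as with the median transcript length. Without division by length it was above Plxna4 in 3 of 4 animals, and the ranges overlapped. The order of Plxna4 and Plxnb1 reversed with the length used. Plxna4 was above Plxnb1 (3.79 ± 0.959) per kb of longest transcript, whereas Plxnb1 (44.8) was above Plxna4 (17.9) with the median transcript length, each in 4 of 4 animals without overlap.

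Plxnb1 measured 29.0, 38.0, 41.1 and 23.0 CPM. Plxna1 measured 23.3, 33.0, 38.8 and 20.0 CPM. Both had the same order of animals, with 3 highest and 4 lowest. Plxna3 (7.42 CPM) and Plxna2 (7.27 CPM) were called at lower means. Plxnd1, known from endothelium, measured 0.0865, 2.42, 4.45 and 10.1 CPM and was called with wide spread. It lost its call without animal 4 (edgeR adjusted p = 0.275). Plxnc1 averaged 0.780 CPM, of which 2.29 CPM was in animal 1, and was not called. Plxnb3 had no count.

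Slit ligands were present and Robo receptors were not detected. Slit3 measured 31.1, 51.1, 41.1 and 27.9 CPM (37.8 ± 10.5 CPM), higher in animals 2 and 3. Slit2 measured 6.56, 7.62, 15.5 and 14.4 CPM (11.0 ± 4.59 CPM), higher in animals 3 and 4. Animal 1 was low for both genes, whereas animals 2 and 4 were on opposite sides. Slit1 had no count. Robo1, Robo2, Robo3 and Robo4 were all at 0 in the 4 libraries, which allows up to 0.171 CPM each over the group. Robo4 is known from endothelium, whose marker list is given above.

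Netrins, which are secreted, summed to 5.22 ± 1.14 CPM per kb, below the ephrin-A ligands and the class 3 semaphorins. Ntn1, the founding netrin, measured 18.6, 9.84, 15.8 and 8.92 CPM, higher in animals 1 and 3. Ntn4, a basement membrane netrin, measured 8.61, 7.99, 8.06 and 18.5 CPM, with animal 4 high and the other animals nearly equal. Ntn5 had no count. The glycosylphosphatidylinositol-anchored netrin-G genes Ntng1 (mean 0.760 CPM) and Ntng2 (1.00 CPM) were not called.

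Neo1 encodes neogenin, a receptor for netrins and for repulsive guidance molecules. It measured 43.3, 45.2, 74.5 and 44.9 CPM (52.0 ± 15.02 CPM), with animal 3 high. Dcc, its paralogue and the main netrin receptor of commissural axons, had no count. Taking Dcc at the 3-count floor over the group, Neo1 was at least 426-fold higher per kb of longest transcript. The bound was 537-fold with the median transcript length and 305-fold without division by length. Unc5b, known from endothelium, was the only Unc5 receptor called, at 9.06, 11.5, 5.74 and 6.18 CPM. Unc5a averaged 2.17 CPM and was not called (edgeR adjusted p = 0.138), and its values ran from 0.438 CPM in animal 1 to 4.69 CPM in animal 3. Unc5c (0.891 CPM) and Unc5d (0.163 CPM) were not called either.

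Over all families, ligands summed to 489, 476, 480 and 532 CPM per kb and receptors to 82.5, 86.5, 106 and 85.8 CPM per kb in animals 1 to 4. The ligand sum was the higher one in each animal, also with the median transcript length (means 949 and 471 CPM per kb). Much of it came from Efna5 and Efna1, at 242 and 114 CPM per kb of longest transcript and 418 and 126 with the median. Without Efna5 and Efna1 the mean ligand sum stayed above the receptor sum with the longest transcript, but lay below it with the median. Per kb of longest transcript the order over the 29 genes with a mean of at least 10 CPM began with Efna5 (242), Efna1 (114), Sema3c (42.6) and Plxnb2 (22.2). On that scale each of these 4 separated from the next of them in 4 of 4 animals, and from Plxnb2 down to Slit2 (1.11) each gene overlapped with its neighbour. Of this order only the first place held on the other scales: Efna5 was first, and above Efna1 in 4 of 4 animals without overlap, with the median transcript length and without division by length too. With the median transcript length Efna5 (418) was followed by Plxnb2 (174), Sema3c (151) and Efna1 (126). Sema3c was then above Efna1, and Plxnb2 above Sema3c, in 4 of 4 animals each, with ranges that overlapped. The order of Efna1, Sema3c and Plxnb2 was thus not settled by these data.

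Related genes were set against each other within each animal in 15 pairs, as the log2 difference of CPM + 0.5 per kb. Here the length is the median over annotated transcripts. Differences were tested two-sided over the 4 animals by exact permutation of their signs. After Benjamini-Hochberg adjustment over the 14 pairs tested, the smallest p this exact permutation gave was 0.146, so that none passed and no pair of 4 animals could. In 12 of the 14 pairs the direction was the same in 4 of 4 animals. Robo1 and Robo2 were both at 0 and had no difference.

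Among ligands, Efna5 exceeded Efna1, and Efna1 minus Efna5 was -1.78, -2.12, -0.89 and -2.06 on the log2 scale in animals 1 to 4 (-1.71 ± 0.568). The gap was smallest in animal 3. Sema3c exceeded Sema3a by a similar margin in every animal (Sema3a minus Sema3c, -3.57 ± 0.180). This was the smallest spread between animals of all pairs. Slit3 exceeded Slit2 (Slit2 minus Slit3, -3.31 ± 0.780), and Efnb1 exceeded Efnb2 (3.40 ± 0.487). Sema4a exceeded Sema4d in 3 of 4 animals (Sema4d minus Sema4a, -1.03 ± 1.00), and in 4 of 4 animals with the longest transcript as length (-2.08). Ntn4 exceeded Ntn1 in 4 of 4 animals (Ntn1 minus Ntn4, -1.12 ± 0.947), but in 2 of 4 with the longest transcript (-0.37), so that their order was not settled.

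Among receptors, Plxna1 exceeded Plxna2 by 4.23 ± 0.789 on the log2 scale, and by 2.35 with the longest transcript. Plxnb2 exceeded Plxnb1 (Plxnb1 minus Plxnb2, -1.96 ± 0.429, and -2.56 with the longest transcript). Ephb4 exceeded Ephb2 (Ephb2 minus Ephb4, -3.47 ± 0.710, and -5.13 with the longest transcript). All of these held in 4 of 4 animals. Ephb2 was under the 3-count floor in 3 of the 4 libraries, so the size of its gap depended on the pseudocount of 0.5 CPM, and it was -4.44 with 0.1 CPM. Epha2 exceeded Epha4 by 6.74, 3.39, 3.68 and 7.79 in animals 1 to 4 (5.40 ± 2.20, and 3.89 with the longest transcript). The larger gaps were in animals 1 and 4, where Epha4 was near 0. In animal 4 Epha4 (0.112 CPM) was under the 3-count floor, so the size of that gap also depended on the pseudocount of 0.5 CPM. Unc5b exceeded Unc5c by 2.08 ± 0.701 (3.41 with the longest transcript). Nrp2 exceeded Nrp1 in 3 of 4 animals (Nrp1 minus Nrp2, -0.46 ± 0.587), and animal 2 had the reverse.

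**Figure D4:**
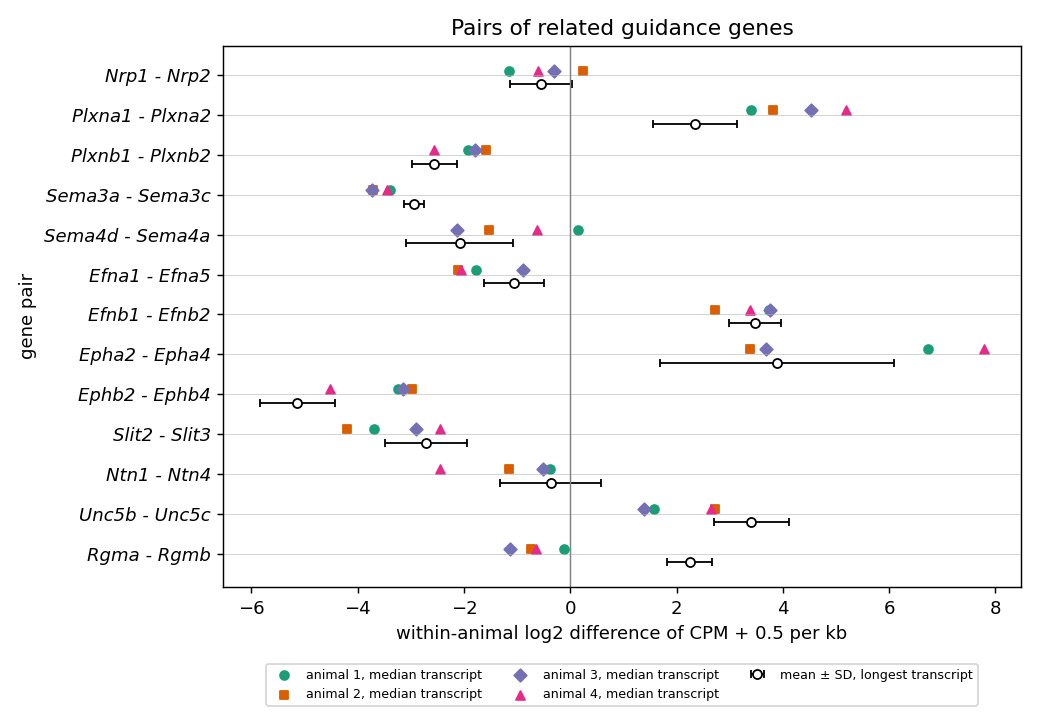
Within-animal log2 difference of CPM + 0.5 per kb, first gene minus second, for 13 pairs. Coloured points are the 4 animals with the median transcript length, and open circles with bars are the mean and SD with the longest transcript. Rgma and Rgmb change sides with the choice of length, and the pair of Neo1 with Dcc is left out because Dcc had no count.

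The spread between animals differed widely from gene to gene. Over the 29 genes with a mean of at least 10 CPM, the SD of log2(CPM + 0.5) between animals ran from 0.19 for Plxnb2 to 1.13 for Sema6d, with a median of 0.43. For each of them, the median SD of all genes within 1.5-fold of its mean level was taken as a reference. The SD of the guidance gene was above that reference in 25 of 29, and the median of the references was 0.34. Efna5, at 0.37, compared with a reference of 0.19. The genes below their reference were Plxnb2, Sema3a, Ephb4 and Sema6a. No test was run on this comparison.

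Of the 42 guidance genes above 1 CPM, 20 (47.6%) had their highest CPM in animal 3, 11 in animal 2, 6 in animal 4 and 5 in animal 1. Among all 11943 genes above 1 CPM, 32.9% were highest in animal 3. With TMM scaling of the libraries, these shares were 40.5% and 25.3%. Efna5, Sema6d, Plxna2, Plxna3, Unc5b and Sema4d were among those not highest in animal 3. The origin of the differences between animals was not tested.

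**Figure D5:**
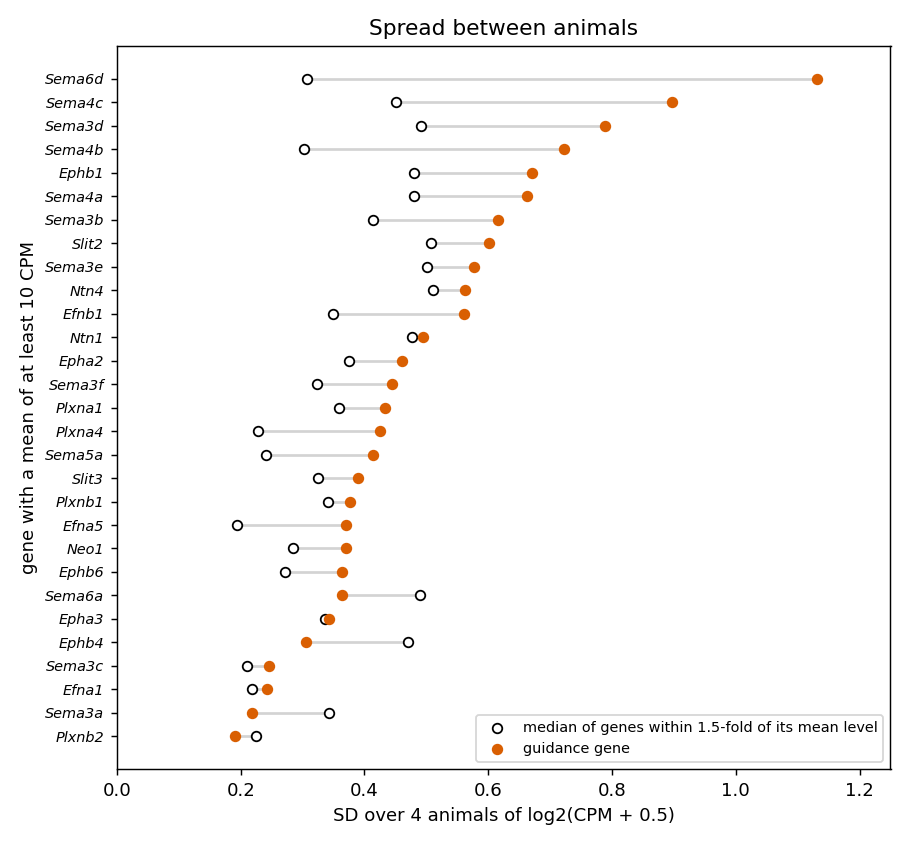
SD over 4 animals of log2(CPM + 0.5) for the 29 guidance genes with a mean of at least 10 CPM (filled points), beside the median SD of all genes within 1.5-fold of the same mean level (open points). Filled points lie to the right of the open ones for 25 of the 29 genes, farthest for Sema6d at 1.13.

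Of 51 further genes of guidance signalling, 40 were above 1 CPM, beside 50.9% of protein-coding genes and 24.7% of all genes. The list was chosen with earlier results of these data known, so this count is not a result about the pathway. The 3 highest by CPM were Dpysl2, which encodes the collapsin response mediator CRMP2, at 1928 ± 312 CPM, the GTPase Rhoa at 781 ± 72.7 CPM and the actin-severing cofilin Cfl1 at 479 ± 62.6 CPM. Dpysl2 measured 1825, 2281, 1553 and 2053 CPM, and animal 3 was the low one, as for Efna5. Draxin, Dscam, Dpysl4, Crmp1 and Islr2 had no count. Rgma and Rgmb, ligands of neogenin, averaged 26.1 ± 7.63 and 8.17 ± 0.833 CPM. Their order per kb depended on the length used: Rgma minus Rgmb was -0.66 ± 0.416 with the median transcript and 2.25 with the longest, each in 4 of 4 animals.

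Some of these values rest on genes that share sequence with others. No source used here gives the strand setting of the counting, so reads from a gene and an overlapping gene on the other strand cannot be told apart. Among the genes above 1 CPM, exons overlap an opposite-strand gene for Plxna1 (970 bases, Gm26811), Sema4c (334 bases, D430040D24Rik), Plxnb1 (257 bases, Gm7628), Epha1 (236 bases, Zyx), Efna4 (168 bases, 4731419I09Rik), Ephb1 (152 bases, Gm26846), Plxna4 (110 bases, Plxna4os3) and Ephb4 (33 bases, Zan). Sema3a has a 340-base stretch of 98.8% identity with Gm43431. Levels of these genes are uncertain to that extent. The calls of 8 genes depended on a setting: Sema4d, Nrp1, Plxnd1, Efna4, Efnb2, Epha1, Epha4 and Unc5a.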

How the data were processed

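RNA of sorted peritoneal mesothelial cells from 4 mice was sequenced, 1 library each. The authors deposited estimated counts per gene, 1 column per library. Per the submitters' processing notes, the tools were limma 3.38.3, edgeR 3.24.3 and kallisto 0.43.1, on the build GRCm38.p5. Kallisto splits reads that fit several transcripts among them, which can move counts between related genes. Library totals were between 4090224 and 4569578. No library was left out, and 1 marker gene is not reported here.

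CPM was the deposited count divided by its column total. Counts were rounded for edgeR 4.0.16 (R 4.3.3), whose quasi-likelihood F test compared the level with 1 CPM, intercept only and one-sided. P-values were adjusted over all 48425 genes (Benjamini-Hochberg), and 0.05 was the threshold. The common coefficient of biological variation was 42.3%. The implementation was tested on simulated data. DESeq2 1.42.0 and limma 3.58.1 (voom) were alternatives, as were TMM and DESeq2 size factors, a filter of at least 10 counts, levels of 0.5 and 2 CPM, and leaving out each animal. Pairs used a pseudocount of 0.5 CPM and the median transcript length of GENCODE M21. That median was under 50% of the longest transcript for many members (50.9% of it on median, 7.82% at the lowest). For this reason, seen after the data, levels per kb, family sums and orders use the longest transcript. Promoter windows come from RefSeq, GRCm38.p6.

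The members and lists were chosen with earlier results of these data known. Members with a mean of at least 10 CPM are given in every animal, and of the lower ones the highest, those at 0, those in a pair and those with an outlying animal are named. Further lower members were named after their values were seen. Of the partners, the 3 highest by CPM and those at 0 are named. The labels describe separate animals. The edgeR p-values set the distance of a level from 1 CPM against the spread between these 4 libraries. That spread is estimated with information shared over all genes, so the size of a p-value does not rest on the 4 libraries alone. Exon overlaps and stretches of at least 200 bases with at least 98% identity (blastn 2.17.0) mark uncertain genes.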

Additional observations from a re-analysis of the deposited data

Results flagged for a closer look

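For 6 of the 45 guidance genes with a mean of at least 1 CPM, 1 animal stood far from the others: its gap to the nearest animal, as a share of the whole range over the 4, exceeded Dixon's critical value for 4 samples. This is 13.3% of them, beside 886 of all 13721 genes with a mean of at least 1 CPM (6.46%). Chance flags about 1 in 20 such groups. Animal 3 was the high one for Neo1 (0.941, 74.5 CPM beside 43.3 to 45.2 in the other animals), for Ephb3 (0.908, 24.2 CPM beside 4.42 to 6.24) and for Sema3c (0.851, 297 CPM beside 208 to 221). Animal 4 was the high one for Ntn4 (0.941, 18.5 CPM beside 7.99 to 8.61) and for Ephb1 (0.837, 23.8 CPM beside 8.00 to 10.6). Animal 2 was the low one for Epha2 (0.836, 15.1 CPM beside 27.8 to 30.3). The restriction to a mean of at least 1 CPM was chosen after the data were seen.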

How the results depend on the processing

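The number of guidance genes above 1 CPM was 42 and ran from 36 (tested against 2 CPM) to 44 (against 0.5 CPM), with 41 to 44 when 1 animal was left out. It was 42 with TMM and with DESeq2 size factors, 43 with the DESeq2 Wald test and with the count filter, and 40 with limma voom. The number of partners above 1 CPM was 40 and ran from 39 to 44. Over 590 recomputed single-gene levels, 573 kept their call, and the calls that moved belonged to 8 of 54 genes. Nrp1 was gained with the DESeq2 Wald test (adjusted p = 0.0462), with the filter (0.0261), against 0.5 CPM, without animal 1 (0.0153) and without animal 4 (0.0398). Plxnd1 and Epha4 were lost with voom and against 2 CPM. Of 98 recomputed pair differences, 3 changed sign: Ntn1 minus Ntn4 was 0.32 without division by length, and Rgma minus Rgmb was 2.25 with the longest transcript and 1.58 without division by length. In both, the length alone makes the change. Median transcript lengths and undivided CPM were also tried on the order of genes and of family sums, an alternative chosen after seeing the data. As the mean log2 ratio within animals, Efna1 over Sema3c went from 1.43 with the longest transcript to -0.26 (median) and -0.33 (undivided), and Sema4b over Sema5a from 0.20 to -1.30 and -1.25. Class 3 semaphorins over plexins went from 0.72 to -0.34 and -0.027. Sema3c over Plxnb2 turned to -0.21 and Plxna4 over Plxnb1 to -1.33 with the median only. No paired analysis was possible because pairing needs groups that share replicate numbers, and the study holds 1 group (gene pairs were compared within animals). At these depths a gene under 0.171 CPM over the group cannot be told from 0.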

Other observations

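Animals 2 and 3 were the pair with the highest values in 17 of the 42 guidance genes above 1 CPM (40.5%), among them Sema4b, Sema4c, Plxna1, Plxnb1, Plxna4, Efnb1, Slit3 and Nrp2. Among all genes above 1 CPM the share was 26.9%. With TMM scaling the values were 15 of 42 (35.7%) and 20.98%. Of the 7 fibroblast markers above 1 CPM, 4 (Col1a1, Dpt, Mfap5 and Dcn) had the same pair highest, and of the 12 mesothelial markers 7 did, or 5 with TMM scaling. The pattern was noticed in these data and was not tested.

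Of the fibronectin leucine-rich transmembrane proteins, which bind Unc5 receptors, Flrt2 was the highest at 292, 138, 149 and 286 CPM in animals 1 to 4 (216 ± 84.4 CPM). Animals 1 and 4 were the high ones, as for Sema6d. Flrt1 averaged 80.1 CPM and Flrt3 5.23 CPM. These 3 genes were picked after their values were seen.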
